A study of Mus musculus with 24 samples.

Results

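Livers of mice lacking Egfr in hepatocytes were compared with wild-type livers 12 h after an acetaminophen overdose. The comparison takes every library labelled KO 12hr, 3 livers, and every library labelled WT 12hr, 3 livers, which are 6 of the 24 libraries of the series. Per the series' design text, mice of both genotypes were given acetaminophen at 500 mg/kg. The KO mice carried a deletion of EGFR in hepatocytes only; the Cre driver, strain, sex and age were not stated in the sources used here. Bulk RNA of whole liver from individual mice was sequenced on the AVITI platform, and the other 18 libraries cover both genotypes at 0, 1 and 3 h. Because each library is 1 mouse, the p-values of the fits below rest on the spread between mice of a group. That spread was pooled over the 8 groups of the series and not taken from the 12 h groups alone. In whole liver, fewer cells of a type and less RNA per cell cannot be told apart.

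The EGF receptor is a receptor tyrosine kinase at the surface of hepatocytes that binds EGF, amphiregulin, betacellulin, TGF-alpha and HB-EGF and signals through ERK, AKT and STAT pathways. Acetaminophen is cleared by glucuronidation and sulfation, while cytochrome P450 enzymes, CYP2E1 above all, turn part of it into a reactive quinone imine that depletes glutathione and damages mitochondria around the central vein. By the time chosen here the injury is under way, JNK and other stress kinases have been active, and surviving hepatocytes have begun stress and repair programmes.

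Among the 6 libraries, between 3.54 M and 4.74 M counts fell on genes, of which mitochondrial ribosomal RNA took 44.8 to 50.4%, leaving 1.75 M to 2.41 M counts for all other genes. Hepatocyte markers were abundant in every library, with Alb, which encodes albumin, at 28001 to 33431 CPM (counts per 1 M of the library size, scaled by the trimmed mean of M-values) in WT and at 25899 to 28453 in KO. On the log2 CPM scale, WT livers correlated with each other at 0.962 to 0.965, KO livers at 0.950 to 0.959 and pairs of opposite genotype at 0.951 to 0.959. WT livers were thus more alike than any mixed pair, while KO livers were spread as widely as the mixed pairs. In a principal component analysis of the 6 livers, the first component took 25.3% of the variance, and on it KO replicates 1 and 2 lay apart from the WT libraries (28.1 and 35.9 against -19.3 to -16.5), whereas KO replicate 3 lay near WT at -10.3. On the second component, with 23.9%, that library stood alone at 44.0. This library had the fewest counts outside mitochondrial ribosomal RNA and the largest share of it, and results that rest on it are given with and without it.

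Egfr itself stood at 263, 205 and 203 CPM in the 3 WT livers and at 65.9, 117 and 43.0 CPM in the 3 KO livers. Every KO liver was below every WT liver, and KO replicate 3, which lay near WT on the first component, held the lowest level. The genotype difference was -1.55 on the log2 scale (SE 0.46, 95% interval -2.52 to -0.59, unadjusted p = 0.00351), which did not pass the threshold over all genes (adjusted p = 0.243, edgeR quasi-likelihood F-test with Benjamini-Hochberg adjustment). The exact two-sided permutation test gave p = 0.1, the smallest that 3 against 3 livers allow. At 0 h the levels were 393 ± 63.9 CPM in WT and 82.4 ± 25.3 in KO (SD, n = 3 each). With any 1 liver left out, the 12 h difference lay between -2.03 and -1.29 and was not called.

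Few transcripts passed the threshold for a genotype difference at 12 h. Egfr, the targeted gene, was not among them, so the number of calls is no measure of how many genes differ. Of 13204 genes tested, 7 (0.053%) were called at an adjusted p below 0.05, all of them lower in KO: Polg2, Krt78, Afm, Taok3, Ggcx, Mrnip and Cpm. No gene was called higher in KO by edgeR, against 698 higher (5.29%) and 664 lower (5.03%) at an unadjusted p below 0.05 (10.3% in all), while DESeq2 called 8 genes higher and 17 lower. With scaling by library size alone, edgeR called 2 genes higher and 7 lower. The count depended on single livers: it was 0 without KO replicate 2 (with 953 genes at an unadjusted p below 0.05) and 1 without WT replicate 2, but 34 without KO replicate 1, 28 without KO replicate 3, 13 without WT replicate 3 and 9 without WT replicate 1. With the replicate number as a block 10 genes were called, the same 7 together with Dhx40 and Rbpjl, lower in KO, and Mat2a, higher in KO. At 0 h the same test called 2 genes, Setdb2 and Gm16146, both lower in KO (0.0151%).

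**Figure D1:**
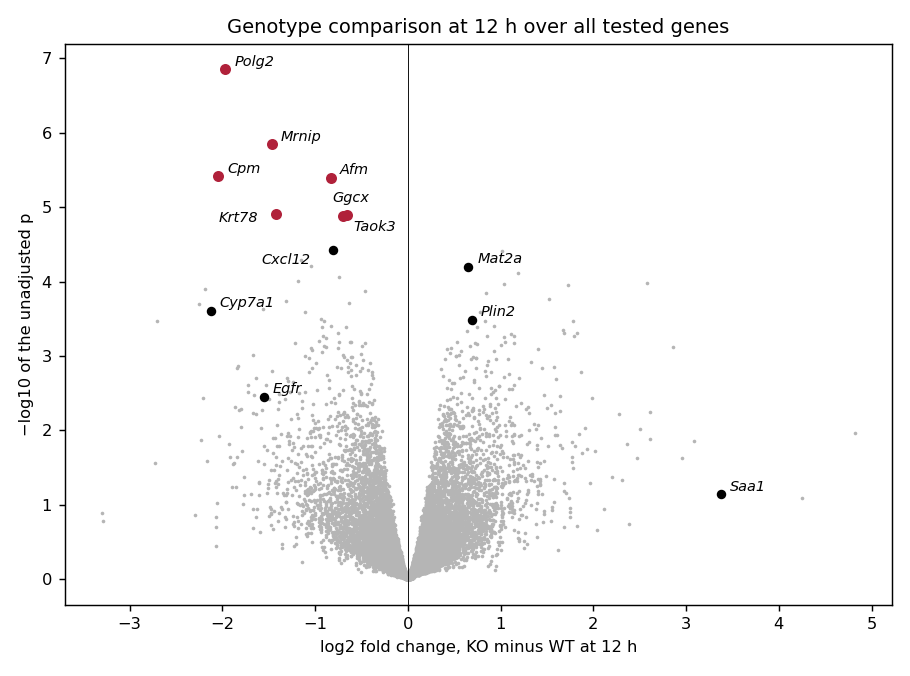
Log2 fold change of KO against WT at 12 h (x axis) and −log10 of the unadjusted p (y axis) for all 13204 tested genes, with the 7 genes past the adjusted threshold in red and 6 genes named in the text in black. All 7 called genes lie left of 0, with lower levels in KO; Egfr at -1.55 and Saa1 at 3.38 show large differences that did not pass.

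Polg2, Krt78, Afm and Taok3 carried at least 97.6% of their stranded counts on their own strand over the 6 libraries, and their read-outs are described first. Their promoters are shown because the transcripts stood lower in the same KO livers; each run is the strand of the gene, 250 bases before to 50 after the annotated start, from RefSeq (GRCm38.p6), a build that differs from the mm39 used for the counts. Capitals mark the matches to the motifs searched on both strands, AP-1 (TGANTCA), CRE (TGACGTCA), E-box (CACGTG) and STAT (TTCCNGGAA), and on the gene's strand to TATAAA.
Polg2, chr11:106779488-106779787, minus strand: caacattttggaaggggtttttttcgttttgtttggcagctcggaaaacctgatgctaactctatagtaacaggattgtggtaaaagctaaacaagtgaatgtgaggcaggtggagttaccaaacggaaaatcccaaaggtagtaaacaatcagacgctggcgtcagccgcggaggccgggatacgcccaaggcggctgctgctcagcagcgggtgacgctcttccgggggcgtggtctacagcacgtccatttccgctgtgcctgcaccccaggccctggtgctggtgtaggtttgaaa
Krt78, chr15:101954238-101954537, minus strand: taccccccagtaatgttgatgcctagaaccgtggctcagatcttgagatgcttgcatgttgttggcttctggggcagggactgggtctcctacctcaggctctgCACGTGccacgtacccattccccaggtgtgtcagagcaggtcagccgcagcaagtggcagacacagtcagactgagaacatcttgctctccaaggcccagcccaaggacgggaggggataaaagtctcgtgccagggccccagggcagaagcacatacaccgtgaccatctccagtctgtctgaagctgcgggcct
Afm, chr5:90518699-90518998, plus strand: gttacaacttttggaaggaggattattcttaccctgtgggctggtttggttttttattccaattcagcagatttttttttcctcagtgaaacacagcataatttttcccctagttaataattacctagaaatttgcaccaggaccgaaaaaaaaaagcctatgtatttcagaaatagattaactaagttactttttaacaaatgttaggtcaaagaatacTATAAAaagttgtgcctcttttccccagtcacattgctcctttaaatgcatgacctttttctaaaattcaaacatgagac
Taok3, chr5:117119879-117120178, plus strand: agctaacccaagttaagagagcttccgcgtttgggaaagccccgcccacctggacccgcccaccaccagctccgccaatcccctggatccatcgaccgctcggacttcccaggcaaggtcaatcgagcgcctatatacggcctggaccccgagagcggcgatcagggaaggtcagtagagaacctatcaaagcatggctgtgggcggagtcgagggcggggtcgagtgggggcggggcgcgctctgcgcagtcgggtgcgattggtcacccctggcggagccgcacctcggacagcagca
The Krt78 window held 1 E-box, starting 146 bases before the annotated start, and the Afm window held 1 TATAAA, starting 30 bases before it. No match was found in the Polg2 and Taok3 windows. Over 32851 mouse promoter windows of the same length, 7.15% held CACGTG and 8.32% held TATAAA on the gene's strand, against 7.81% for TGANTCA, 1.79% for TGACGTCA and 1.15% for TTCCNGGAA. No motif was shared by these promoters.

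Polg2, which encodes the accessory subunit of the mitochondrial DNA polymerase, stood at 9.81, 10.6 and 12.7 CPM in the WT livers and at 2.64, 2.46 and 3.49 CPM in the KO livers. The groups lay far apart with no overlap. Polg2 was 3.91-fold lower in KO (log2 -1.97, SE 0.29, edgeR adjusted p = 0.00187), and on the gene strand alone the difference was -2.00 (adjusted p = 0.00463). It was the only gene called after leaving out WT replicate 2, and missed the threshold only without KO replicate 2 (adjusted p = 0.0520) among the omissions of single livers. Polg2 lies past the 3′ end of Ddx5 on the same strand, within 10 kb. Ddx5, an RNA helicase gene, differed by 0.21 on its own strand (adjusted p = 0.508), and reads running on from it could not be told apart from Polg2 reads in these counts.

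Afm encodes afamin, a vitamin E-binding plasma glycoprotein of the albumin family. Its levels were 74.6, 80.3 and 74.2 CPM in WT and 44.0, 41.0 and 44.0 CPM in KO, tight within each genotype and without overlap. Afm was 43.8% lower in KO (log2 -0.83, SE 0.15, edgeR adjusted p = 0.0134; gene strand adjusted p = 0.0272). The call was lost without WT replicate 2 (adjusted p = 0.0910) or KO replicate 2 (adjusted p = 0.158), at nearly the same size (-0.80 in both).

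Krt78 encodes a type II keratin, a family of intermediate filament proteins of epithelial cells. It was counted at 20.6, 16.1 and 21.8 CPM in WT and at 6.16, 5.65 and 10.5 CPM in KO. KO replicate 3 was the highest KO liver and still below every WT liver. The difference was -1.42 (SE 0.27, edgeR adjusted p = 0.0249), and -1.41 on the gene strand, where the adjusted p was 0.0576. The call was lost without WT replicate 1, 2 or 3 (adjusted p = 0.111, 0.0910 and 0.118) and without KO replicate 1 or 2 (0.0652 and 0.334), with differences from -1.55 to -1.25, and was kept without KO replicate 3.

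Taok3, a STE20-family kinase able to act upstream of JNK and p38, stood at 126, 126 and 124 CPM in WT and at 87.3, 66.6 and 84.2 CPM in KO. The WT livers were almost equal and all KO livers lay below them. Taok3 was 36.7% lower in KO (log2 -0.66, SE 0.13, edgeR adjusted p = 0.0249), with an adjusted p of 0.0576 on the gene strand. Its interval, -0.92 to -0.40, lay within 2-fold. The call was lost without WT replicate 1, 2 or 3 (adjusted p = 0.0885, 0.118 and 0.0656) and without KO replicate 2 (0.356), with differences from -0.67 to -0.55.

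**Figure D2:**
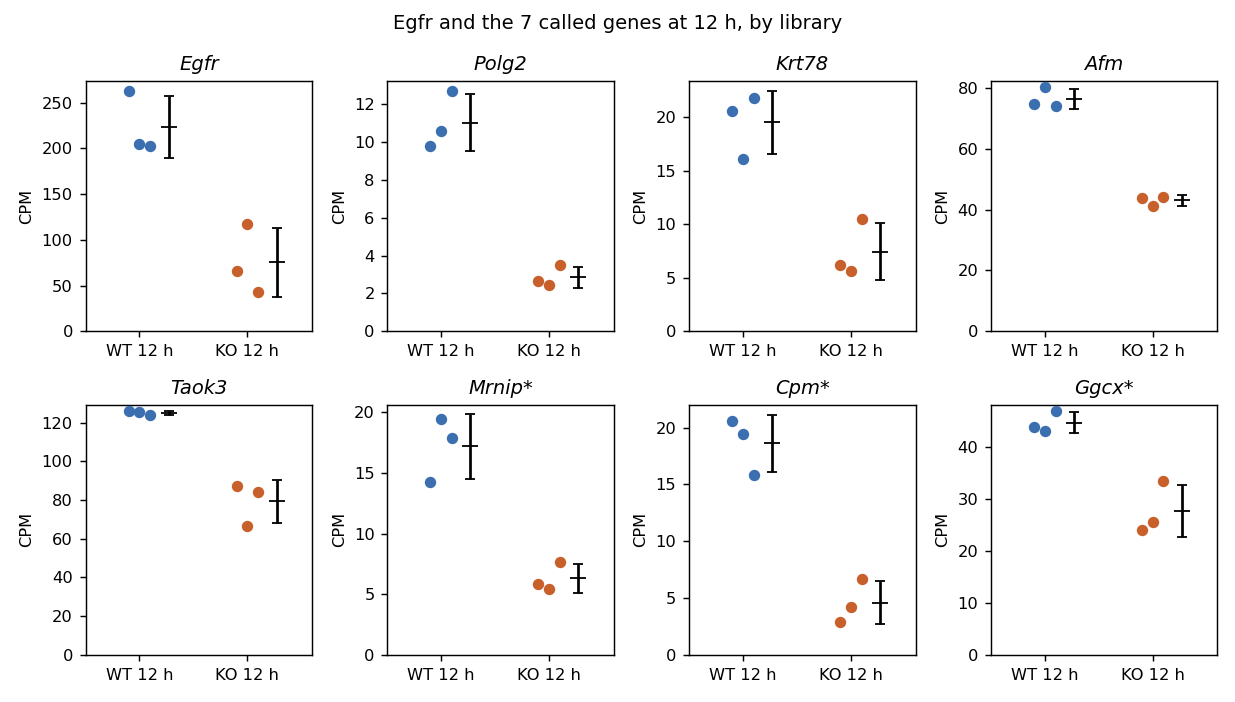
CPM of each liver (points) with the mean and SD (bars, n = 3) in WT and KO at 12 h for Egfr and the 7 called genes; asterisks mark genes with under 60% of their stranded counts on their own strand. No gene shown has overlapping genotypes, from Afm (41.0 to 44.0 in KO, 74.2 to 80.3 in WT) to Egfr with its wide spread.

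At the other called genes, the difference lay in reads on the strand opposite to the gene. Mrnip, which encodes a DNA damage response protein that binds the MRN complex, Cpm, a membrane carboxypeptidase, and Ggcx, the vitamin K-dependent gamma-glutamyl carboxylase, had 3.79, 15.2 and 56.1% of their stranded counts on their own strand. Mrnip and Cpm fall outside the rule for named genes for this reason and were named after their values were seen. All of them were less firm than Polg2 when a liver was left out: Mrnip and Cpm missed the threshold without WT replicate 2 (adjusted p = 0.0910 for each) or KO replicate 2 (0.158 and 0.185), and Ggcx missed it without any liver other than KO replicate 3 (0.0664 to 0.334).

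At Ggcx, opposite-strand counts were 79, 86 and 110 in the WT livers and 16, 13 and 29 in the KO livers, a difference of -2.19 with no overlap (edgeR adjusted p = 4.12e-06). On its own strand Ggcx stood at 18.9 CPM in WT and 21.7 in KO on average, a difference of 0.20 in the other direction (adjusted p = 0.668). Cpm held 61, 61 and 55 opposite-strand counts in WT against 5, 8 and 16 in KO, a difference of -2.58 (adjusted p = 0.000127), and on its own strand the difference was -0.20 (adjusted p = 0.941). At Mrnip the opposite-strand counts were 48, 73 and 69 in WT and 20, 22 and 22 in KO, a difference of -1.54 (adjusted p = 0.000620). Its own strand held 0 to 4 counts a library. On gene-strand counts 2 of 12046 genes tested were called (0.0166%), Polg2 and Afm. The calls at Ggcx, Cpm and Mrnip thus describe reads of the facing strand and not the levels of these genes' own transcripts.

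A test of opposite-strand counts over all loci, added after these values were seen, covered 3195 loci, of which 11 were lower in KO (0.344%) and 5 higher (0.156%). Without KO replicate 3 it gave 11 lower and 9 higher, without WT replicate 2 it gave 3 lower and 0 higher, without KO replicate 2 it gave 4 and 1, and without WT or KO replicate 1 it gave 2 higher. Ggcx, Cpm and Mrnip were called in all 6 of these fits (highest adjusted p = 0.00103, 0.00630 and 0.0294). Of the 8 lower loci that could be placed in the GENCODE M21 annotation by symbol, each lay past the 3′ end of a protein-coding gene transcribed on the strand of the reads, within 10 kb or overlapping it. Of the 3 higher loci that could be placed, 1 did so. Among all 2425 placed loci, 55.3% did so, and the share among the called loci was not tested. The facing gene was Mat2a for Ggcx, Mdm2 for Cpm, Sqstm1 for Mrnip, Srsf5 for Slc10a1, Maff for Tmem184b, Sdc4 for Rbpjl, Ugp2 for Vps54 and Selenop for Ccdc152.

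None of these facing genes was called on its own strand, with differences from -0.43 at Ugp2 to 0.72 at Mat2a. Mat2a, the methionine adenosyltransferase that makes S-adenosylmethionine mainly outside the adult liver, held 314, 235 and 349 own-strand counts in WT and 525, 446 and 445 in KO. It was thus counted more often in every KO liver than in any WT liver, opposite to the reads at Ggcx. Mdm2, the p53-inhibiting ubiquitin ligase, held 809, 694 and 1088 counts in WT against 850, 557 and 726 in KO, with overlap. Sqstm1, the autophagy receptor p62, held 768, 684 and 1012 against 900, 820 and 638, also with overlap. Summed over 997 gene pairs that face each other 3′ end to 3′ end, the opposite-strand counts at 1 gene per 100 own-strand counts of the other were 2.75 to 3.05 in WT and 2.36 to 2.86 in KO, so the livers of both genotypes overlapped. At 0 h the same measure was 1.54 to 1.82 in WT and 1.66 to 1.77 in KO.

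**Figure D3:**
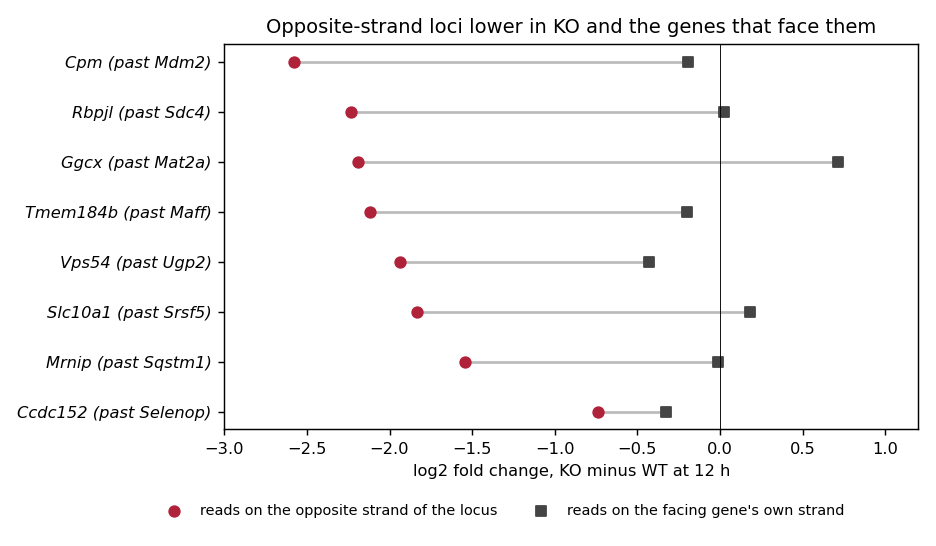
Log2 fold change of KO against WT at 12 h for opposite-strand reads at the 8 placed loci lower in KO (circles) and for own-strand reads of the gene that faces each locus (squares). The loci run from -2.58 (Cpm) to -0.74 (Ccdc152), while the facing genes run from -0.43 (Ugp2) to 0.72 (Mat2a) and none was called.

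The genes differed in their course from 0 h. Polg2 stood at 3.11 ± 0.55 CPM in WT and 2.85 ± 0.49 in KO at 0 h (SD, n = 3 each); by 12 h it rose in WT (log2 1.80, edgeR adjusted p = 1.97e-06) and stood at 2.86 ± 0.55 in KO (-0.03, adjusted p = 0.953). Afm rose in WT from 42.2 ± 7.11 to 76.4 ± 3.42 CPM (0.85, adjusted p = 3.7e-05), and in KO it was 49.0 ± 11.5 at 0 h and 43.0 ± 1.71 at 12 h (-0.19, adjusted p = 0.365). Krt78 was near 0 before the drug, at 0.114 CPM in WT and 0.0528 in KO, and rose in both genotypes (adjusted p = 6.01e-13 in WT and 4.36e-10 in KO), to 19.5 ± 2.98 CPM in WT and 7.43 ± 2.65 in KO. Taok3 fell in KO, from 109 ± 6.97 to 79.4 ± 11.2 CPM (-0.46, adjusted p = 0.00643), and differed by -0.10 in WT (adjusted p = 0.602); the difference between these changes, -0.35, did not pass (adjusted p = 0.499).

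Whether the genotype difference at 12 h differed from that at 0 h was tested for every gene, and 3 of 13204 genes (0.0227%) passed, 2 higher (0.0151%) and 1 lower (0.00757%); the test shares the 12 h livers with the comparison above. They were Ggcx, at -1.05 (SE 0.19, edgeR adjusted p = 0.0213), the linker histone gene H1f2, at 1.62 (SE 0.30, adjusted p = 0.0457), and the predicted gene Gm16146, at 1.49 (SE 0.21, adjusted p = 0.00105). At an unadjusted p below 0.05 there were 1350 genes (10.2%). With the replicate block 5 genes passed, these 3 and also Afm and Rnf125; on gene-strand counts 0 passed, with 1205 at an unadjusted p below 0.05. Gm16146 passed with any 1 of the 12 livers left out. Ggcx did not pass without WT replicate 3 at 0 h (adjusted p = 0.126), KO replicate 3 at 0 h (0.0603), WT replicate 1 at 12 h (0.0603) or KO replicate 2 at 12 h (0.170), and H1f2 passed in 4 of 12 such fits (adjusted p = 0.00447 to 0.248). Polg2 had a difference of -1.83 that did not pass (adjusted p = 0.0927), nor did Afm at -1.04 (adjusted p = 0.0555), Cpm at -2.66 (adjusted p = 0.0555), Mrnip at -2.05 (adjusted p = 0.0819) or Krt78 at -0.60 (adjusted p = 0.969). In the same test DESeq2 called Cpm, Afm, Mrnip and Polg2 (adjusted p = 0.00298, 0.00808, 0.0290 and 0.0487) but not Krt78. For Krt78, with a level near 0 at 0 h, the SE of the edgeR difference was 3.10. Its test thus shows neither a difference nor a likeness of response. For the other genes, whether a difference of response was called depended on the method.

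H1f2 stood at 22.8, 26.1 and 30.3 CPM in the WT livers at 12 h and at 33.4, 47.4 and 33.2 in the KO livers, all KO livers being higher. At 0 h its order was the opposite, with 17.7 ± 5.27 CPM in WT and 8.17 ± 0.88 in KO (SD, n = 3 each). The transcripts of replication-dependent histone genes such as H1f2 lack a poly(A) tail as a rule, and the labels give polyA RNA. Gm16146 carried 0.92% of its stranded counts on its own strand, so its values, 24.96 ± 1.33 CPM in WT and 37.0 ± 5.29 in KO at 12 h, describe opposite-strand reads.

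**Figure D4:**
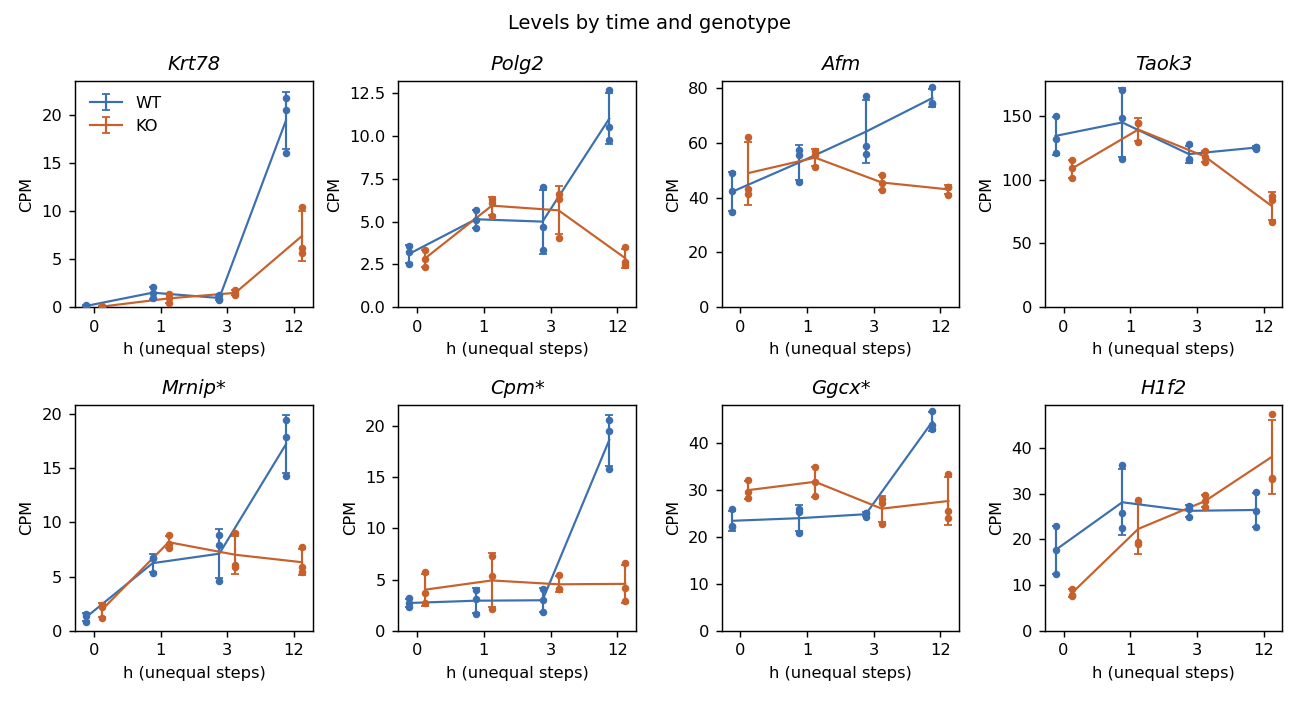
CPM at 0, 1, 3 and 12 h in WT (blue) and KO (orange), as single livers (points) and mean with SD (lines and bars, n = 3 per point), with time steps drawn evenly; asterisks mark genes with under 60% of their stranded counts on their own strand. Krt78, Polg2, Afm, Taok3, Mrnip, Cpm and Ggcx have every KO liver below every WT liver at 12 h, and H1f2 has every KO liver above.

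Below the threshold, the genes with the smallest p values in each direction form a second tier, and none of them was called with all 6 livers in that fit. Those with less RNA in KO included the chemokine gene Cxcl12, at 85.1, 111 and 106 CPM in WT and 51.6, 53.3 and 69.1 in KO (log2 -0.80, adjusted p = 0.0573). Also in this group were Arl4d, a small GTPase gene (-1.15, adjusted p = 0.0688), Dhx40, a helicase gene (-1.04, adjusted p = 0.0701), Hmgn1, a nucleosome-binding protein gene (-0.75, adjusted p = 0.0805), and the translation factor gene Eif4b (-0.46, adjusted p = 0.0877). Lsmem1 had the largest difference of the tier, 15.2, 11.4 and 15.8 CPM in WT against 2.34, 1.72 and 5.24 in KO (-2.25, adjusted p = 0.106). All of these had groups that did not overlap, as the rule for naming requires, a pattern shown by 14.5% of all genes tested (7.38% with KO below WT and 7.13% with KO above).

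In the other direction stood Mat2a, at 107, 67.5 and 94.4 CPM in WT and 153, 113 and 156 in KO (0.65, adjusted p = 0.0701), and the lipid droplet coat gene Plin2, at 331, 261 and 410 CPM in WT and 518, 617 and 484 in KO (0.69, adjusted p = 0.129). Pex11a, a peroxisome proliferation gene, and Slc25a30, a mitochondrial carrier gene, differed by 0.75 (adjusted p = 0.133) and 1.12 (adjusted p = 0.139). Zinc finger genes Zfp157, Zfp943 and Zfp507 differed by 1.19, 0.78 and 0.72 (adjusted p = 0.0769, 0.117 and 0.141). Of the genes of this tier named here, DESeq2 called Mat2a, Plin2, Zfp157, Slc25a30, Cxcl12, Arl4d, Dhx40 and Eif4b. With edgeR, Dhx40 and Mat2a were called with the replicate block (adjusted p = 0.0212 and 0.0445) and with scaling by library size alone (0.0465 and 0.0419). Leaving out 1 liver also brought calls: Cxcl12, Mat2a and Zfp157 without WT replicate 1 (adjusted p = 0.0398 for each), and Dhx40 and Plin2 without WT replicate 3 (0.00453 and 0.0483). Without KO replicate 1 these were Hmgn1, Arl4d, Dhx40 and Zfp157 (0.0126, 0.0397, 0.0197 and 0.0397), and without KO replicate 3 they were Slc25a30, Cxcl12 and Lsmem1 (0.0209, 0.0209 and 0.0484).

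Across 35 lists of pathway genes, 666 distinct members were tested and 0 were called in either direction by edgeR. None of the 7 called genes was on a list, so Taok3 and Afm, described above, are not counted in the lists for stress kinases and plasma carriers. At an unadjusted p below 0.05, 35 were higher and 52 lower in KO, beside 5.29% and 5.03% of all genes. A gene is called alike here where its whole 95% interval lies between -1 and 1 on the log2 scale, that is within 2-fold in both directions. By that measure 470 of the 666 (70.6%) were alike, beside 8042 of all 13204 tested genes (60.9%). The share of alike genes followed the level, at 0.791% under 2 CPM, 52.3% from 2 to 10 CPM, 93.5% from 10 to 50 CPM and 94.3% above 50 CPM, and no more than that is read from the lists' shares.

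**Figure D5:**
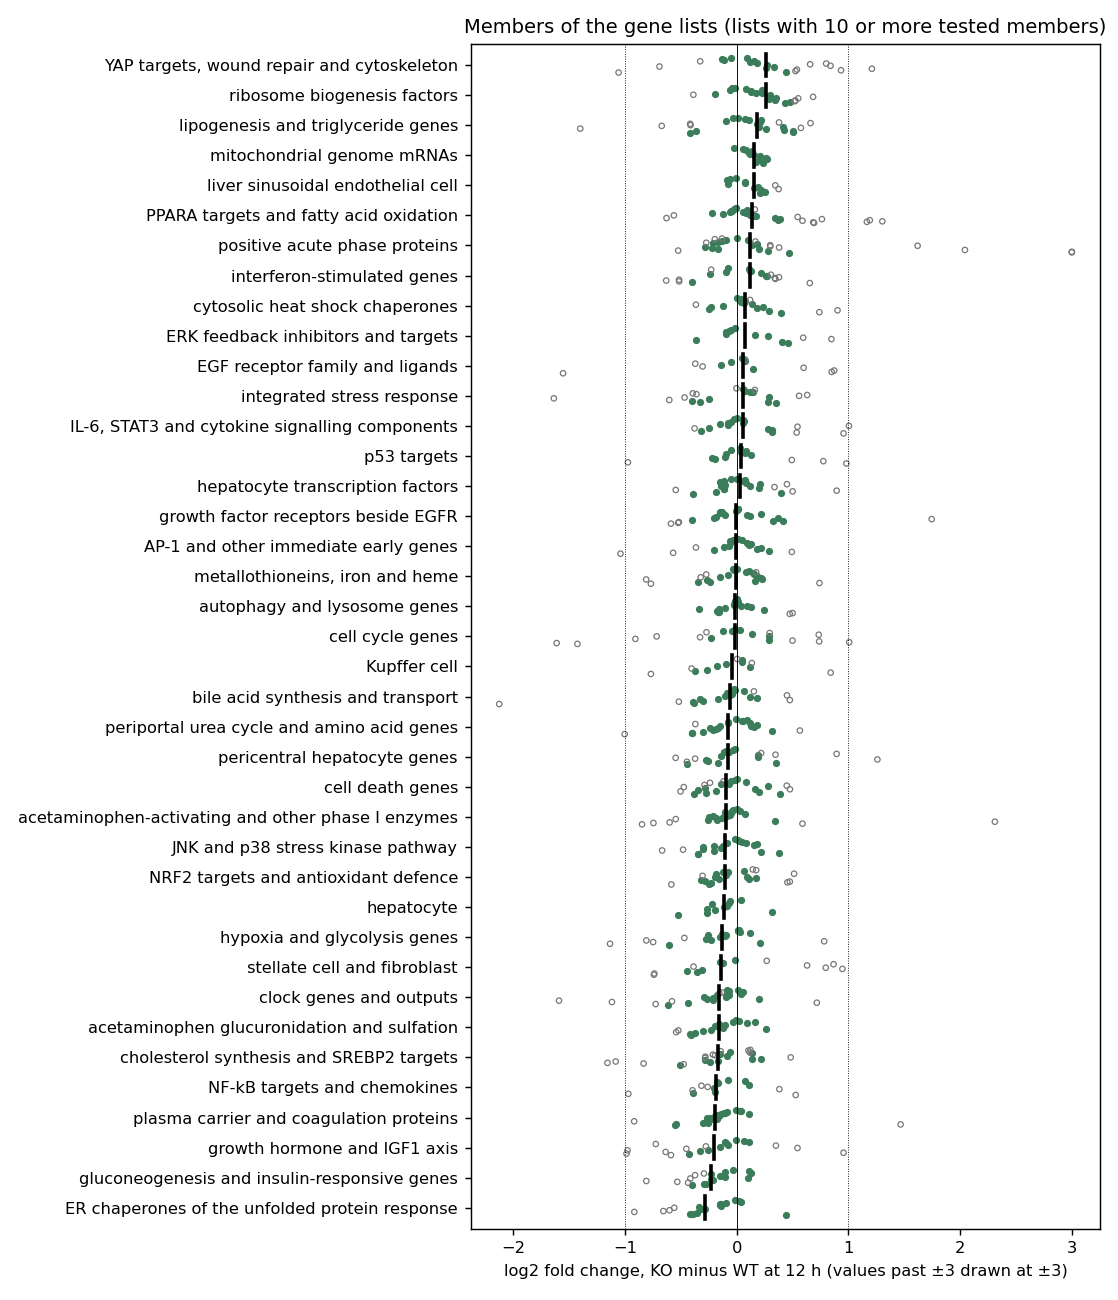
Log2 fold change of KO against WT at 12 h for every tested member of the lists with 10 or more tested members, pathways and cell types alike, ordered by the list's median (black bars); values past 3 are drawn at 3, filled points are alike within 2-fold and dotted lines mark -1 and 1. Medians run from -0.29 for the list of endoplasmic reticulum chaperones and related genes to 0.26 for ribosome biogenesis factors and YAP targets, and 0 points passed the adjusted threshold.

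Among receptors and ligands of the EGF family, 12 were tested and Egfr had the lowest value. The co-receptor gene Erbb3 was alike, at 27.5, 34.2 and 24.4 CPM in WT and 25.2, 30.5 and 27.2 in KO (-0.05, interval -0.34 to 0.24). The ligand genes Tgfa, Hbegf and Areg differed by 0.08, -0.30 and 0.08, all with overlapping groups and only Tgfa alike within 2-fold. Betacellulin, Btc, stood at 1.58, 1.67 and 3.11 CPM in WT and 4.10, 5.16 and 2.10 in KO, near the detection limit. Errfi1, a feedback inhibitor that binds the receptor, was alike (0.15, interval -0.09 to 0.38).

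Downstream of the receptor, 10 of 12 ERK feedback inhibitors and targets were alike, among them the ERK phosphatase gene Dusp6 (-0.09, interval -0.71 to 0.52), Dusp4, Spry4 and Myc. Spred2, which restrains RAF activation, stood at 52.5, 38.6 and 49.8 CPM in WT and 67.4, 66.6 and 59.0 in KO (0.46, edgeR adjusted p = 0.271). Of 18 AP-1 and other immediate early genes, 14 were alike, including Jun (-0.03, interval -0.46 to 0.40), Junb and Atf3. Fosb and Fos had values of -1.04 and -0.57 with overlapping groups (adjusted p = 0.323 and 0.477).

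No enzyme on the lists for acetaminophen activation or clearance was called. Cyp2e1 stood at 2049, 1877 and 1950.3 CPM in WT and 1769, 2016 and 1126 in KO, where replicate 3 was the lowest, a difference of -0.26 with an interval from -0.67 to 0.15. Without KO replicate 3 it was -0.05, and without KO replicate 2 it was -0.44. Cyp1a2 and the reductase gene Por were alike at -0.03 and 0.00. Among 24 phase I enzymes, 18 were alike, and 2 were higher and 3 lower in KO at an unadjusted p below 0.05 (5.29 and 5.03% of all genes). Cyp2b10, an enzyme induced through the receptor CAR, was at 2.53, 5.00 and 0.259 CPM in WT and 7.91, 25.8 and 2.44 in KO, with overlap (2.31, interval 0.04 to 4.58, edgeR adjusted p = 0.476), and at 1.06 without KO replicate 2. Cyp2c54, at 105, 133 and 106 CPM in WT and 61.6, 59.7 and 70.2 in KO, had the lowest p of the list (-0.85, edgeR adjusted p = 0.218). Of 18 glucuronidation and sulfation genes, 16 were alike, including Ugt1a6a (0.26) and Sult1a1 (0.09). In 4 of the 18 every KO liver was below every WT liver, beside 7.38% of all genes, and 3 were lower at an unadjusted p below 0.05, beside 5.03%. Ugt1a1, Ugp2 and Ugt2b36 had values of -0.41, -0.41 and -0.37 without overlap (adjusted p = 0.322, 0.322 and 0.388).

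No stress or death gene on the lists, which do not hold Taok3, was called. In the JNK and p38 list 18 of 20 genes were alike, among them Mapk8 and Mapk9, which encode JNK1 and JNK2 (-0.12 and -0.14), and Map3k5, which encodes ASK1 (0.08). Of 22 NRF2 targets and antioxidant genes, 15 were alike, including the glutathione synthesis genes Gclc (0.17) and Gclm (-0.10); the heme oxygenase gene Hmox1 was not resolved, at 0.17 with an interval from -0.71 to 1.06. Of 19 integrated stress response genes, 10 were alike. The p53 targets held 10 alike of 14, with Cdkn1a at 0.03 and Mdm2 at -0.20, while Aen, a nuclease gene, and Bbc3, which encodes PUMA, had values of 0.98 and -0.97 (edgeR adjusted p = 0.211 and 0.296). Autophagy and lysosome genes were alike in 19 of 21 cases, and cell death genes in 15 of 22, with the caspase-8 regulator gene Cflar at -0.38 (adjusted p = 0.287).

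The list of endoplasmic reticulum chaperones, which also holds degradation and transcription factor genes, had a median of -0.29 over 19 tested genes, beside 0.01 over all genes tested. In this list 5 were lower and 1 higher at an unadjusted p below 0.05, beside 5.03% and 5.29% of all genes, and 15 were alike. Sel1l, part of the degradation complex of this compartment, stood at 98.1, 91.4 and 103 CPM in WT and 74.2, 67.1 and 77.5 in KO (-0.42, edgeR adjusted p = 0.219). Edem1, Canx and Hsp90b1 had values of -0.40, -0.35 and -0.32 without overlap, while Hspa5, the main chaperone, was at -0.10 with overlap. Xbp1, a transcription factor gene of the same response, was at 0.44 (adjusted p = 0.189), and it was called without KO replicate 3 (0.61, adjusted p = 0.0287). Without KO replicate 3 the median was -0.30 with 5 lower, and without KO replicate 2 it was -0.13 with 2 lower.

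Lipid genes of the PPARA list, which serve fatty acid oxidation and lipid storage, held 7 of 29 members higher in KO and 0 lower at an unadjusted p below 0.05, beside 5.29% and 5.03% of all genes, with none called. Among them were Plin2, Ehhadh, Acot2, Cidec, Cyp4a14 and Pdk4. Ehhadh, a peroxisomal oxidation enzyme, stood at 796, 539 and 813 CPM in WT and 981, 1285 and 1188 in KO (0.68, edgeR adjusted p = 0.149). Cidec, a lipid droplet protein gene, stood at 42.7, 30.6 and 68.0 CPM in WT and 120, 147 and 80.7 in KO (1.30, adjusted p = 0.279). The list's median was 0.14, 18 of its members were alike, Cpt1a among them at 0.08, and without KO replicate 3 the count was again 7. Without WT replicate 2 it was 4 higher and 1 lower. With scaling by library size alone it was 11; that scaling moved the median of all genes by 0.09.

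In the bile acid list, Cyp7a1, the rate-limiting enzyme of bile acid synthesis, stood at 183, 245 and 109 CPM in WT and 43.4, 21.6 and 59.7 in KO. All KO livers were below all WT livers, and both groups were widely spread. The difference of -2.13 (SE 0.46, interval -3.09 to -1.16) had an unadjusted p of 0.000248 and did not pass in edgeR (adjusted p = 0.117, and 0.0791 to 0.493 when a liver was left out), while DESeq2 called it (adjusted p = 0.00171). Nr1h4, which encodes the bile acid receptor FXR, was at -0.39 (adjusted p = 0.343), and 15 of 20 members of the list were alike.

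Plasma carrier and coagulation genes of the list, which does not hold Afm, were alike in 23 of 25 cases, with Alb at -0.19 and Apob at 0.04. At an unadjusted p below 0.05, 8 were lower in KO (F11, F7, Proc, F5, F2, Serpina6, Apoe and Ttr) and 1 higher (Apoa4), beside 5.03% and 5.29% of all genes, with a list median of -0.19. With scaling by library size alone the lower count was 2, without KO replicate 2 or WT replicate 3 it was 3, without WT replicate 1 it was 4, without WT replicate 2 it was 5, and without KO replicate 3 it was 7. F11, coagulation factor XI, stood at 43.3, 38.1 and 48.2 CPM in WT and 31.7, 29.2 and 27.2 in KO (-0.56, edgeR adjusted p = 0.164). Apoa4, an apolipoprotein gene, was the exception, at 811, 463 and 748 CPM in WT and 2949.8, 1600.5 and 1041 in KO (1.47, adjusted p = 0.234).

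The growth hormone and IGF1 axis held 3 of 20 members lower in KO and 0 higher at an unadjusted p below 0.05, beside 5.03% and 5.29% of all genes, and 10 of the 20 were alike. Without KO replicate 2, 1 was lower. Ghr, the growth hormone receptor gene, stood at 204, 170 and 198 CPM in WT and 125, 108 and 149 in KO (-0.59, edgeR adjusted p = 0.293). Igf1 stood at 994, 855 and 1023 CPM in WT and 789, 580 and 773 in KO (-0.42, adjusted p = 0.303). In both, the groups did not overlap. Igfals, which stabilises circulating IGF1, was at -0.99 (adjusted p = 0.306).

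Among 26 acute phase genes, 5 had every KO liver above every WT liver and 1 the reverse, beside 7.13% and 7.38% of all genes. At an unadjusted p below 0.05 in edgeR, 1 was higher and 0 lower in KO, beside 5.29% and 5.03%. Of the 26, 14 were alike, and the serum amyloid genes were high in 1 liver only. Saa1, a serum amyloid gene, stood at 6.33, 7.23 and 5.45 CPM in WT and at 3.52, 5.90 and 195 in KO, and Saa2 at 2.21, 2.50 and 3.63 in WT and 1.47, 2.21 and 165 in KO. Only KO replicate 3 was high, and the other KO livers lay with or below WT. The differences of 3.38 and 4.25 were not called (edgeR adjusted p = 0.533 and 0.546), and without KO replicate 3 they were -0.40 and -0.59. Crp was at 81.9, 80.3 and 92.1 CPM in WT and 111, 125 and 116 in KO (0.47, adjusted p = 0.219). Cytokine signalling genes were alike in 14 of 19 cases, with Stat3 at -0.02.

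Ribosome biogenesis factors held 5 of 22 members higher in KO at an unadjusted p below 0.05 and 0 lower, beside 5.29% and 5.03% of all genes, with a median of 0.26 and 17 alike. The higher count was 1 without KO replicate 1, 2 without KO replicate 2 or WT replicate 1, 3 without WT replicate 2 and 7 without KO replicate 3. Utp20 and Nop56 were at 0.44 and 0.48 (edgeR adjusted p = 0.303 and 0.311). All 13 mRNAs of the mitochondrial genome were alike, with a median of 0.16. Hepatocyte transcription factors were alike in 17 of 22 cases, Hnf4a among them (-0.12, interval -0.34 to 0.11).

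Markers of other cell types were set beside these results as summed CPM. The 11 hepatocyte markers in the files summed to 52885 to 57762 in WT and 49580 to 53202 in KO, overlapping. Kupffer cell, monocyte, endothelial, stellate cell, T and NK cell, B cell, mesothelial and erythroid sums overlapped too. The monocyte sum came almost wholly from the 3 of 12 markers with enough counts to test (Lyz2, Fn1 and Plac8), as no other marker of that list passed 2.50 CPM. T and NK cell, B cell and mesothelial sums reached at most 3.52, 6.98 and 1.75 CPM in any liver. Overlap of these sums does not show like numbers of these cells. The 12 neutrophil markers summed to 6.74 to 12.2 in WT and 4.91 to 6.45 in KO, and the 10 dendritic cell markers to 30.05 to 37.1 in WT and 19.4 to 28.98 in KO, so that in both lists every KO liver was below every WT liver, at low levels. Only these of the 13 cell type lists had sums without overlap, a pattern shown in either direction by 14.5% of all genes tested. Counts were high enough to test 0 of the neutrophil markers and 5 of the dendritic cell markers. Of these 5, 1 had a value above 0, and none was called. The untested dendritic cell markers Xcr1, Flt3, Cd209a, Siglech and Itgax reached at most 1.67 CPM, so that sum came mostly from the tested markers. Fewer neutrophils or dendritic cells in KO are not shown by these sums. The 10 cholangiocyte markers summed to 115 to 225 in WT and 40.3 to 134 in KO. Most of that sum was Sox9, at 204, 97.0 and 134 CPM in WT and 76.8, 25.8 and 109 in KO, a gene that stressed hepatocytes can also express. The cholangiocyte markers did not move together: of the 4 tested, values ran from -1.06 to 2.20. Among these 4, 1 was higher and 1 lower in KO at an unadjusted p below 0.05 in edgeR, beside 5.29% and 5.03% of all genes. The part of these cells in the genotype differences was not tested. Of 12 pancreatic acinar markers, 6 (Prss1, Prss2, Cpa1, Amy2a5, Try4 and Try5) were at 0 in all 6 libraries.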

How the data were processed

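RNA from 24 livers was sequenced on the AVITI platform. The authors deposited raw read counts per gene for each library, made with STAR against mm39, per the submitters' processing notes; its version and annotation were not stated in the sources used here. The deposited count files hold 50657 genes, an unstranded column, a gene-strand column and an opposite-strand column, and 4 lines that name no gene, which were left out. Of 20.0 M to 24.2 M reads per 12 h library, 17.6 to 20.4% were counted on genes and 28.3 to 30.8% were ambiguous between genes.

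Unstranded counts were filtered (filterByExpr), scaled (TMM) and fitted with edgeR 4.0.16 (R 4.3.3) over 24 libraries in 8 groups, 1 mean per group, with the robust quasi-likelihood F-test, two-sided, Benjamini-Hochberg adjustment and a threshold of 0.05; p-values and intervals come from this fit unless named. The median SE of a log2 fold change was 0.28. No pair of 12 h libraries agreed within sampling noise. Each named gene was also fitted on the gene-strand counts. DESeq2 1.42.0, other scalings and filters, only the groups compared, and each liver left out were alternatives. The testing script was tested on simulated data.

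The replicate numbers were checked as a pairing: over 5574 genes at 10 CPM or more, deviations of same-numbered WT and KO livers at 12 h correlated at 0.251, 0.119 and 0.217, and other pairs at -0.187 to -0.0476. Deviations were taken from the mean of each group, so positive same-numbered pairs pull the other pairs below 0. The negative values are thus no separate result. The labels give only the numbers, and at 0 h same-numbered pairs correlated at -0.0516, -0.0253 and 0.170.

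Named genes were Egfr; up to 12 called genes per direction with at least 5 CPM, no overlap and at least 50% of counts on their own strand, filled by smallest p where fewer passed; and, per list, called members, up to 4 by smallest p and 2 by level, and for the difference of response up to 5 per direction. Predicted genes were passed over. Mrnip, Cpm, Gm16146, Setdb2, Rbpjl, Rnf125, genes facing a named locus and genes named as alike within the lists fall outside this rule and were added after their values were seen. Members and the 48 lists were chosen with earlier results of these data known. Neighbouring genes were taken from the GENCODE M21 annotation by order and strand only, and promoters from RefSeq (GRCm38.p6).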

Additional observations from a re-analysis of the deposited data

Results flagged for a closer look

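For 3 genes the genotype difference at 12 h differed from that at 0 h in the test of the difference itself (edgeR quasi-likelihood F-test, Benjamini-Hochberg adjustment). Gm16146 had a value of 1.49 on the log2 scale, being lower in KO at 0 h (-0.92) and at 0.57 at 12 h. H1f2 had a value of 1.62, with -1.09 at 0 h and 0.53 at 12 h. Ggcx had a value of -1.05, with 0.35 at 0 h and -0.70 at 12 h, and on gene-strand counts its value was -0.15.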

How the results depend on the processing

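The number of genes called at 12 h, 7 in edgeR, was 78 with no filter on low counts, 25 with DESeq2, 24 when the fit held only the groups compared and 2 on gene-strand counts, and ran from 0 to 34 when 1 liver was left out. Fits that pool the spread were used where a liver was left out. The number of genes whose response differed, 3 in edgeR, was 1 with library size alone, 79 with no filter, 5 with at least 1 CPM in 3 libraries, 29 with DESeq2, 9 with only the groups compared, 5 with the replicate block and 0 on gene-strand counts, and ran from 1 to 15 when 1 liver was left out. Ggcx and Mrnip reversed on gene-strand counts, to 0.20 and 0.60, since that column leaves out the opposite-strand reads; the cause of the other moves was not tested. Egfr kept its direction without being called in all 14 alternatives (-2.03 to -1.29), and the number of genes alike within 2-fold stayed between 7214 and 8342. Pairing by replicate block gave 10 called genes and, for Egfr, -1.57; it changed no other call than those of Dhx40, Rbpjl, Mat2a, Afm and Rnf125 named above. Depth limits the low genes: the median SE was 0.60 under 2 CPM and 0.13 above 50 CPM.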
